A study of Melitaea cinxia with 170 samples.

Results

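In thorax RNA of the butterfly Melitaea cinxia, the Glanville fritillary, 60 transcripts had lower median levels 20 h after a flight treatment than in controls frozen at the same time, on both islands sampled. They were chosen from RNA sequencing of 85 butterflies by a fixed rule on measured values. Levels in CPM (reads of a gene model per 1000000 reads counted in that butterfly) were computed for 16667 gene models, and the 4920 with a mean of at least 5 CPM were eligible. For each island, R20 was the log2 ratio of the median CPM of flown to control butterflies at 20 h, with 0.5 CPM added to both medians. The 60 gene models whose higher R20 of the 2 islands was most negative were taken. What R20 shows is therefore how the transcripts were picked, and only the butterflies frozen at 1 h, which gave no R20 value, provide tests.

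The butterflies came from 2 islands in the Baltic Sea, labelled AL (Åland) and PT (Pikku Tytärsaari). Flown butterflies went through a flight treatment, while controls were handled alike but did not fly. Those of the 20 h groups spent the night singly in cages with food and were frozen in liquid nitrogen the next morning, about 20 h after the start, and those of the 1 h groups were frozen 1 h after the start. On AL there were 15 flown and 6 control butterflies at 20 h, and 13 flown and 6 control butterflies at 1 h. On PT there were 15 flown and 7 control butterflies at 20 h, and 16 flown and 7 control butterflies at 1 h. Every group held both sexes, with 32 males and 53 females in all, but some controls were few: only 2 AL males and 2 PT males were controls at 20 h. Females and males numbered 10 and 5 in flown AL butterflies at 20 h (controls 4 and 2), and 9 and 6 on PT (controls 5 and 2). At 1 h they numbered 7 and 6 in flown AL butterflies (controls 4 and 2), and 10 and 6 on PT (controls 4 and 3). R20 and the like ratio at 1 h pool the sexes, so for transcripts that differ by sex they can also reflect this mix. The sources used here do not give ages or individual flight times. RNA came from the whole thorax, and each butterfly gave 1 library with inserts of 450 nt and 1 with inserts of 650 nt, whose counts were summed.

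The thorax carries the wings and is filled largely by flight muscle, a tissue with one of the highest rates of aerobic metabolism known among animals. It also holds fat body, which stores and releases fuel, together with tracheae, nerve ganglia, gut and cuticle-forming epidermis. A transcript's level reflects the balance of its synthesis and its decay, so a level measured the morning after exercise can differ from controls although it did not an hour after the start. In whole-thorax RNA, fewer cells of a type and less RNA per cell cannot be told apart. The identifiers are the project's own, and 0 of the 16667 matched the table of gene names used here, so no member can be given a name, a function or a position, and the thorax label was not checked against marker genes.

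Totals ran from 1820059 to 6944328 counts per butterfly (median 3955268), with group medians of 3947965 in flown and 3985174 in control butterflies at 20 h, and 3865036 in flown and 4134436 in control butterflies at 1 h. At the median total, 1 read was worth 0.253 CPM, and a count of 0 allows a level of up to 0.758 CPM (3 counts, counting error only). Most members had few reads: their mean CPM had a median of 13.8, against 20.0 over the 4920 genes, and 39 of the 60 averaged under 20 CPM while 8 averaged over 100 CPM. A single member, MCINXTMP_006617, took 28357 CPM on average and ranked 4 among all gene models by reads. The 60 members together held 3.14% of the counts of a butterfly on average, and 0.308% without it. Transcript lengths are not given, so levels are compared between butterflies and not between genes.

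At 20 h the members stood at lower medians in flown than in control butterflies by construction, and the size of the gap varied widely. R20 had a median of -0.92 on AL and -0.94 on PT, against 0.26 and -0.13 over all 4920 genes, and R20 below 0 on both islands held for 870 of them (17.7%). Values ran from -4.72 to -0.67 on AL and from -2.38 to -0.68 on PT. Of the members, 29 were deeper on AL and 31 on PT, and 13 were under -1 on both. On AL 8 members were under -2 and on PT 4, with 1 member, MCINXTMP_000977, under -2 on both. The choice ended close to other genes, since the last member, MCINXTMP_009000, had R20 values of -0.67 on AL and -1.10 on PT, and the first gene outside, MCINXTMP_011618, had -0.72 on AL and -0.67 on PT. With library totals scaled by TMM (trimmed mean of M values), which moved the all-gene median to -0.03 on AL and -0.04 on PT, the members' median R20 was -1.30 on AL and -0.81 on PT, and all 60 stayed below 0 on both islands.

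**Figure D1:**
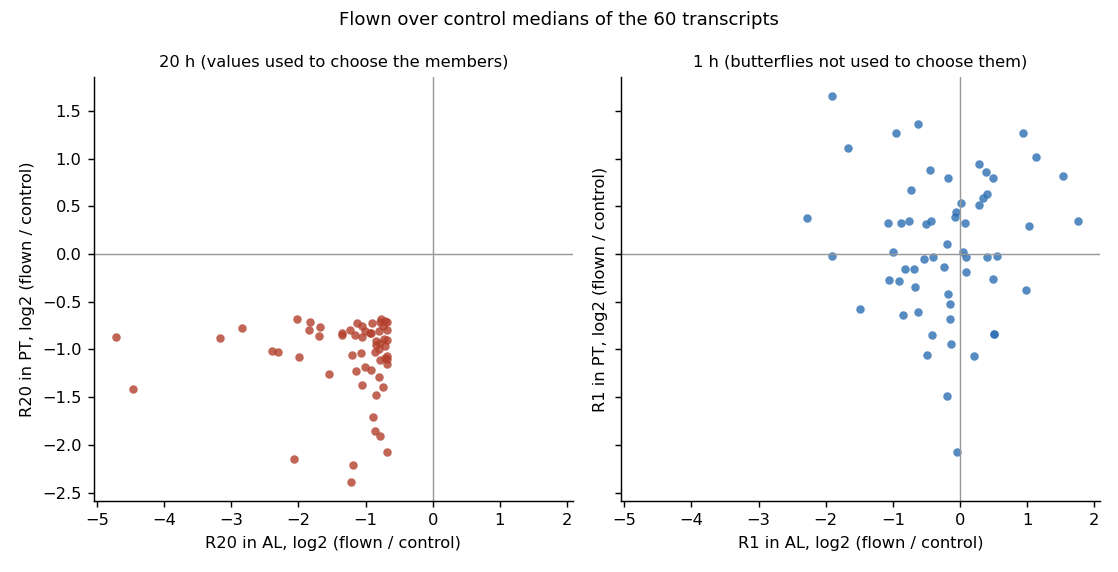
Each point is 1 of the 60 transcripts, placed by its log2 ratio of flown to control medians (CPM + 0.5) on AL (horizontal) and PT (vertical), at 20 h on the left and at 1 h on the right. At 20 h all points lie below -0.67 on both axes because they were chosen so, whereas at 1 h they lie on both sides of 0, with medians of -0.18 on AL and 0.02 on PT.

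By the higher of its R20 values, MCINXTMP_000977 stood first, at -2.07 on AL and -2.15 on PT, although 6 members were deeper on AL and 2 on PT. Its flown PT median lay under the limit of 3 counts, so that its PT value depends on the 0.5 CPM added. On AL it ran from 0 to 29.4 CPM (median 2.51) in flown butterflies at 20 h, against 3.72 to 21.3 CPM (median 12.1) in controls. On PT it ran from 0 to 20.1 CPM (median 0.664) in flown butterflies, against 0 to 8.53 CPM (median 4.66) in controls. The groups overlapped on both islands, and single flown butterflies lay above every control, while 11 of 15 flown AL butterflies and 12 of 15 flown PT butterflies lay below the control median. At 1 h the same transcript was not lower after flight in its medians, at 11.9 CPM in flown and 9.21 CPM in control AL butterflies, and at 5.06 CPM in flown and 3.19 CPM in control PT butterflies.

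MCINXTMP_001701 came next by the rule, with R20 values of -4.46 on AL and -1.42 on PT. Flown AL butterflies at 20 h had 0 to 61.6 CPM with a median of 0.941, and AL controls had 0 to 43.1 CPM with a median of 31.3. The values of this transcript were thus spread over the whole range in both groups, with 12 of 15 flown AL butterflies below the control median. Flown PT butterflies had 0 to 8.92 CPM with a median of 1.01, and PT controls had 0 to 19.0 CPM with a median of 3.53. A count of 0 was found in 8 of 30 flown and 2 of 13 control butterflies at 20 h.

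A pair of members with more reads, chosen after their values were seen, had smaller gaps. MCINXTMP_000356 had 62.6 to 683 CPM (median 278) in flown AL butterflies at 20 h, against 363 to 620 CPM (median 460) in AL controls. On PT it had 145 to 483 CPM (median 291) in flown butterflies, against 266 to 576 CPM (median 542) in controls. All 15 flown PT butterflies and 13 of 15 flown AL butterflies lay below the control median of their island. MCINXTMP_001879 had medians of 312 CPM in flown and 546 CPM in control AL butterflies, and of 336 CPM in flown and 672 CPM in control PT butterflies, with 14 of 15 flown butterflies below the control median on each island. These medians pool the sexes. In AL males at 20 h, flown butterflies had 148 to 486 CPM (median 271), against 156 and 237 CPM in controls. The lower AL median after flight was thus not found in males.

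No member separated the groups fully: in none of the 60 did every flown butterfly lie below every control at 20 h on AL or on PT, which was also found for 0 of the 4920 genes (0.00%) on either island. The typical member had 80% of flown butterflies below the control median on each island, against 33.3% on AL and 60% on PT for the typical gene. The rule put each member's flown median below the control median in these butterflies, so a high share is built in. In 8 members a median at 20 h lay at or under the limit of 3 counts: the flown median of 4 members on AL and 5 on PT, and the control median of 2 on PT. Their R20 depends on the 0.5 CPM added, as does the lowest AL value of -4.72, which belonged to MCINXTMP_006293 with a flown AL median of 0.612 CPM against 28.8 CPM in controls. Both PT medians were under the limit for MCINXTMP_010010 and MCINXTMP_006482, at 0 CPM in flown butterflies against 0.516 and 0.510 CPM in controls, and for these no fold is given on PT.

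Because the rule used flown against control at 20 h, the edgeR test of that contrast is given as a description only. The quasi-likelihood fit over 85 butterflies, with population, treatment and sex as terms, tested 7643 genes, and all 60 members passed its filter on low counts. All 60 log2 fold changes were below 0, from -2.05 to -0.12, and 10 members had an adjusted p under 0.05, all lower, where 1.71% of all genes tested were called (0.628% lower and 1.09% higher). With DESeq2 18 members were called and with limma voom 12, and leaving out AL female control 3 or PT female control 4 at 20 h left 4. MCINXTMP_011024, chosen after its values were seen, had the smallest adjusted p of the 60. It had 1.32 to 23.8 CPM (median 3.30) in flown AL butterflies and 5.58 to 23.6 CPM (median 7.41) in AL controls, with 0 to 22.4 CPM (median 8.80) in flown PT butterflies and 15.4 to 81.0 CPM (median 23.6) in PT controls. Its log2 fold change was -1.70 (SE 0.38, adjusted p = 0.00791 by edgeR).

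**Figure D2:**
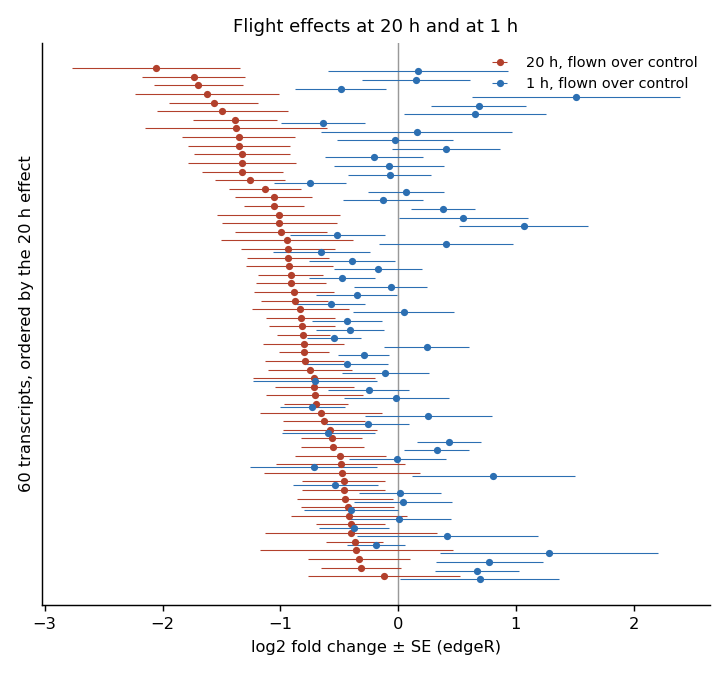
The horizontal axis gives the edgeR log2 fold change of flown over control butterflies with its standard error, and each row is 1 of the 60 transcripts ordered by its 20 h effect, with 20 h in red and 1 h in blue. The 20 h effects all lie below 0 in the butterflies that chose the transcripts, while the 1 h effects run from -0.75 to 1.51 with 34 below 0.

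Butterfly by butterfly, the members' level was summarised as the median over the 60 of log2 CPM relative to the 1 h controls of the same island. On AL this score ran from -1.52 to -0.09 (median -0.75) in flown butterflies at 20 h, against -0.57 to 0.43 (median 0.27) in controls, and 11 of 15 flown butterflies lay below the lowest control. On PT it ran from -1.15 to 0.04 (median -0.67) in flown butterflies, against -0.19 to 0.77 (median 0.34) in controls, and 14 of 15 lay below the lowest control. Over all genes the same score had group medians of 0.26 in flown and -0.03 in control AL butterflies, and of -0.02 in flown and 0.06 in control PT butterflies. The low scores were found in most flown butterflies of the 20 h groups. These butterflies chose the members, so a gap in the score at 20 h is built in and is given as a description. At 1 h the groups overlapped, with 0 of 13 flown AL butterflies and 4 of 16 flown PT butterflies below the lowest control, and a median score of -0.18 in flown and 0.13 in control AL butterflies, and 0.03 in flown and 0.00 in control PT butterflies.

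**Figure D3:**
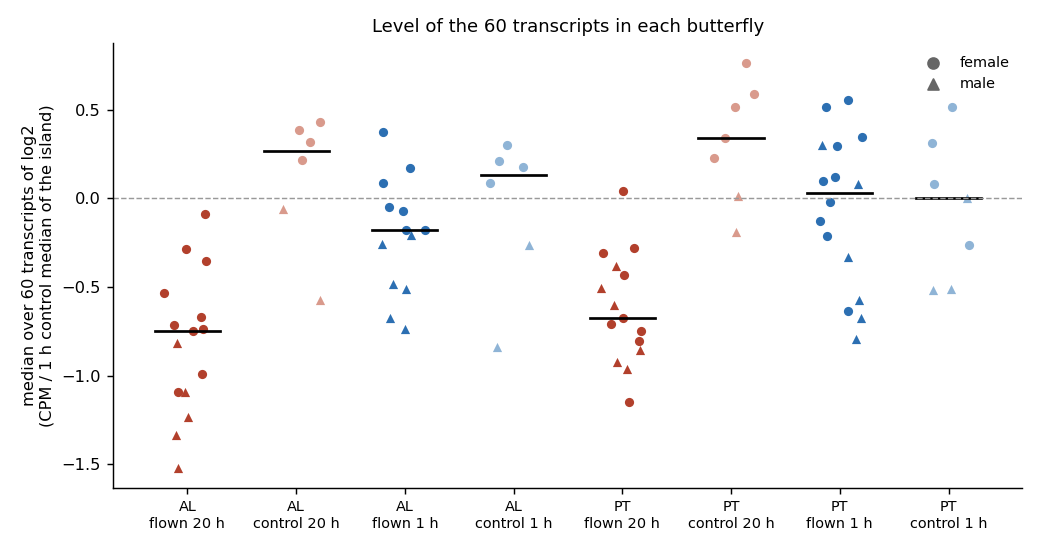
Each point is 1 butterfly, placed by the median over the 60 transcripts of log2 CPM relative to the median of the 1 h controls of its island (vertical axis), with circles for females, triangles for males and bars at group medians. At 20 h 11 of 15 flown AL butterflies and 14 of 15 flown PT butterflies lie below the lowest control of their island, and at 1 h flown and control butterflies overlap. The 20 h butterflies chose the transcripts, so a gap there is built in.

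The members were chosen on both sexes pooled, and the gap was less even in males, who had 2 controls per island. In females R20 was below 0 for 57 members on AL and 57 on PT, and for 55 on both. In males it was below 0 for 42 members on AL and 49 on PT, and for 36 on both. The medians of R20 were -0.89 on AL and -0.61 on PT in males, and -0.98 on AL and -1.04 on PT in females. These values reuse the butterflies that chose the members, and the difference between the sexes was not tested at 20 h. Females outnumbered males in every 20 h group, so the pooled medians of the rule lean toward females and a more even gap in them is partly built in.

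Setting 20 h against 1 h within a treatment showed which groups made up the gap. In flown butterflies the log2 ratio of the 20 h to the 1 h median was below 0 for 50 members on AL and 55 on PT, with medians of -0.69 and -0.62, against 0.22 on AL and -0.09 on PT over all 4920 genes. In controls the same ratio was above 0 for 39 members on AL and 43 on PT, with medians of 0.25 and 0.36, against -0.04 on AL and 0.11 on PT over all genes. Of all 4920 genes, 1631 on AL and 2953 on PT had a flown ratio below 0. A control ratio above 0 was found for 2268 of them on AL and 2937 on PT. In most members the flown median was thus lower at 20 h than at 1 h, and in most the control median was higher. On PT each of these also held for most of the 4920 genes. Since the choice favoured low flown and high control values at 20 h, these ratios are not independent of it, and they are given without a test.

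MCINXTMP_008786 was among the 10 called at 20 h and shows both patterns on one island. On AL its medians were 3.62 CPM in flown butterflies at 20 h and 27.4 CPM at 1 h, and 36.4 CPM in controls at 20 h and 28.4 CPM at 1 h. On PT they were 3.59 CPM in flown butterflies at 20 h and 10.7 CPM at 1 h, and 7.03 CPM in controls at 20 h and 7.77 CPM at 1 h. All 15 flown AL butterflies and 13 of 15 flown PT butterflies lay below the 20 h control median of their island. The 20 h groups nevertheless overlapped on both islands. AL control females 1 and 2 had 4.60 and 3.00 CPM, close to the flown AL median, and several flown AL butterflies lay above both. PT control female 2 had 1.03 CPM, below the flown PT median. The gene model numbered just before it, MCINXTMP_008785, is also a member, with 20 h medians of 3.85 CPM in flown and 6.47 CPM in control AL butterflies, and 3.49 CPM in flown and 6.42 CPM in control PT butterflies.

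The 1 h butterflies answer whether the same transcripts were already lower soon after flight began. The median log2 ratio of flown to control medians at 1 h was -0.18 on AL and 0.02 on PT, against 0.00 and 0.08 over all 4920 genes. It was below 0 on both islands for 20 of 60 members (33.3%), against 22.8% of all genes, above 0 on both for 14 (against 30.7%), and of opposite sign for 26. By edgeR no member was called for flight at 1 h, where 0.327% of all genes tested were called. Lower calls made up 0.0654% of all genes. At an unadjusted p under 0.05 there were 3 members, all lower after flight, against 7.60% of all genes in either direction and 3.10% lower, and DESeq2 and limma voom also called none. The members' median log2 fold change was -0.07, against 0.01 over all genes, and this test does not show that levels were equal. With females only, edgeR again called none, but 10 members (16.7%) were lower at an unadjusted p under 0.05, against 3.76% of all genes.

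The lowest p at 1 h belonged to MCINXTMP_006617, with a log2 fold change of -0.73 (SE 0.27, adjusted p = 0.415 by edgeR), which did not pass. It had 5104 to 125042 CPM (median 29487) in flown AL butterflies at 1 h, against 7747 to 109925 CPM (median 82376) in AL controls. On PT it had 1716 to 23238 CPM (median 11902) in flown butterflies, against 3637 to 25092 CPM (median 17728) in controls. The groups overlapped on both islands, with 11 of 13 flown AL butterflies and 14 of 16 flown PT butterflies below the control median. These medians pool the sexes, whose shares differed between flown and control butterflies, while the edgeR fit has a sex term. Within AL at 1 h the flown and control medians were 60847 and 90178 CPM in females, and 10448 and 10190 CPM in males. Within PT they were 13715 and 19596 CPM in females, and 4295 and 10739 CPM in males. MCINXTMP_004313 lay on the other side at 1 h. All 13 flown AL butterflies, with 4.71 to 33.1 CPM (median 9.85), were above the control median of 3.07 CPM, where controls had 1.43 to 12.8 CPM. On PT it had medians of 5.36 CPM in flown and 2.84 CPM in control butterflies, with 7 of 16 flown butterflies below the control median, and its log2 fold change over both islands was 0.78 (SE 0.46, adjusted p = 0.701 by edgeR).

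The flight effect at 1 h was also compared between the islands and between the sexes. For the AL effect minus the PT effect, no member and none of all genes tested was called by edgeR (0.00%), with 2 members at an unadjusted p under 0.05, against 4.83% of all genes. For the male effect minus the female effect, again none was called (0.00%), and the lowest adjusted p among members was 0.419. DESeq2 and limma voom called no member for either difference. For this sex difference 8 members, or 13.3%, had an unadjusted p under 0.05, all with the higher effect in males. This compares with 7.17% of all genes in either direction and 3.28% with the higher effect in males. The male-minus-female difference was above 0 for 42 of the 60 members, with a median of 0.41 on the log2 scale against 0.01 over all genes. Computed within each sex at 1 h, the log2 ratio of flown to control medians had a median over members of 0.05 on AL and 0.16 on PT in males, and of -0.45 on AL and -0.27 on PT in females. Over all 4920 genes it was 0.00 on AL and 0.14 on PT in males, and 0.10 on AL and -0.01 on PT in females.

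Many members differed between the islands in the 42 butterflies of 1 h, which the rule used only for the minimum of mean CPM. With treatment and sex in the model, edgeR called 25 of 60 (41.7%), against 29.1% of all genes tested. Of these 18 were higher on AL (16.5% of all genes were called so) and 7 were lower on AL (12.6%), and 22 of the 25 differed by more than 1 on the log2 scale. The members' median log2 fold change of AL over PT was 0.47, against 0.02 over all genes. The minimum of 5 CPM over all butterflies was reached by 9 members only through AL and by 4 only through PT, and for these a difference between the islands is built into their eligibility. Of the 47 members that averaged at least 5 CPM on each island, 17 were called (36.2%), against 29.4% of the 4380 genes that did so. Of the 17, 14 were higher on AL (29.8% of the 47, against 13.9% of those genes) and 3 were lower (6.38% against 15.4%).

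The largest called differences toward AL were those of MCINXTMP_010010 and MCINXTMP_006482, both of which reached the minimum only through AL, so that their values are a description. MCINXTMP_010010 had 0 to 1066 CPM (median 13.1, n = 19) on AL and 0 to 11.5 CPM (median 0.734, n = 23) on PT at 1 h. Its log2 fold change was 6.50 (SE 1.04), although low AL butterflies overlapped those of PT. MCINXTMP_006482 had 0 to 51.2 CPM (median 20.2) on AL and 0 to 4.44 CPM (median 0) on PT, where 13 of 23 butterflies had a count of 0. Its log2 fold change was 6.38 (SE 0.66). For both transcripts PT lay near the limit of detection, so that the lower medians at 20 h were measurable on AL and not on PT.

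MCINXTMP_007711, chosen after its values were seen, had the smallest adjusted p of the members in this comparison. It had 14.5 to 718 CPM (median 230) on AL and 5.48 to 45.5 CPM (median 17.2) on PT at 1 h, with a log2 fold change of 3.63 (SE 0.35, adjusted p = 9.29e-11 by edgeR). At 20 h its medians were 124 CPM in flown and 441 CPM in control AL butterflies, and 8.30 CPM in flown and 13.9 CPM in control PT butterflies, so its medians lay further apart between the islands than between treatments. These medians pool the sexes, and it was called lower in males at 1 h (log2 fold change -1.12, adjusted p = 0.0154 by edgeR). In AL males at 20 h, flown butterflies had 23.2 to 195 CPM (median 115), against 22.2 and 27.4 CPM in controls. The lower AL median after flight was thus not found in males.

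The lowest log2 fold changes of AL over PT were those of MCINXTMP_011807, which reached the minimum only through PT and is given as a description, and MCINXTMP_015475, which reached it on each island. MCINXTMP_011807 had 0 to 6.20 CPM (median 0.948) on AL and 0 to 87.5 CPM (median 25.7) on PT at 1 h, a log2 fold change of -5.02 (SE 0.73). MCINXTMP_015475 had 1.88 to 83.7 CPM (median 13.6) on AL and 27.4 to 335 CPM (median 109) on PT, a log2 fold change of -2.47 (SE 0.34, adjusted p = 2.31e-07 by edgeR). At 20 h on PT, where it had more reads, MCINXTMP_015475 had 25.7 to 115 CPM (median 63.9) in flown butterflies against 37.9 to 158 CPM (median 106) in controls, and 14 of 15 flown butterflies lay below the control median. On AL its medians were 8.77 CPM in flown and 16.9 CPM in control butterflies. The lower flown medians at 20 h on both islands are set by the rule, while the levels of this member lay several-fold apart between the islands. Any batch that followed the island cannot be told apart from it, since the labels give none.

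**Figure D4:**
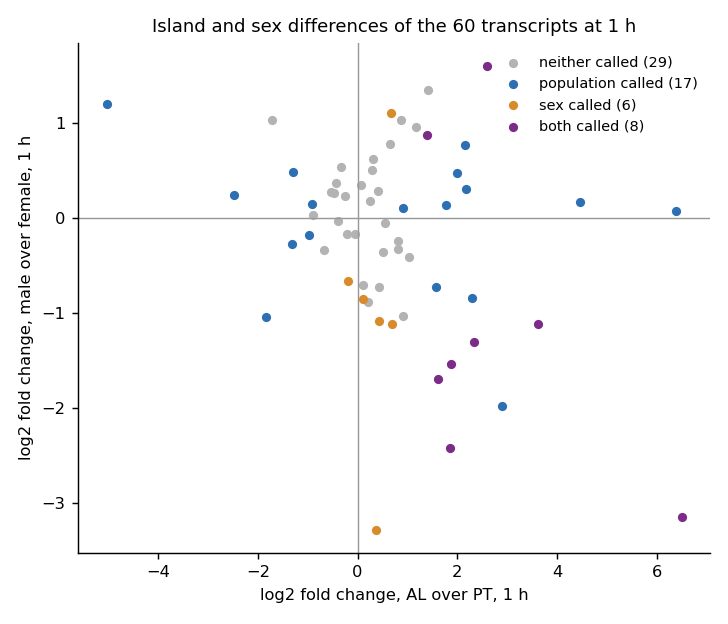
Each point is 1 of the 60 transcripts, placed by its edgeR log2 fold change of AL over PT (horizontal) and of males over females (vertical) in the 42 butterflies of 1 h, with colours for those called for population, sex, both or neither. Of the 60, 8 were called for both and 29 for neither, and 6 of the 8 lie at the lower right, higher on AL and lower in males.

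Sex also separated the members at 1 h. edgeR called 14 of 60 (23.3%) between males and females, against 9.35% of all genes tested. Of these, 3 were higher in males (4.93% of all genes were called so) and 11 lower in males (4.42%), and 11 of the 14 differed by more than 1 on the log2 scale. The median log2 fold change of males over females was 0.00 for the members and -0.05 over all genes, so the 11 lower calls stood beside 30 members with values above 0. Females alone carried 7 members to the 5 CPM minimum, 3 of them called, and males alone carried 2, none of them called. Of the 51 members that averaged at least 5 CPM in each sex, 11 were called (21.6%), against 13.4% of the 4418 genes that did so, with 3 higher in males (5.88% against 8.10%) and 8 lower (15.7% against 5.32%). Both population and sex were called for 8 members, of which 6 were higher on AL and in females and 2 were higher on AL and in males.

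MCINXTMP_006615 had the lowest log2 fold change of males over females. Males at 1 h had 3.03 to 97.6 CPM (median 62.8, n = 17) and females 175 to 2489 CPM (median 529, n = 25), so the sexes did not overlap. The log2 fold change was -3.29 (SE 0.34, adjusted p = 2.86e-09 by edgeR). MCINXTMP_010010 came next, with 0 to 202 CPM (median 0) in males and 0.456 to 1066 CPM (median 6.48) in females, a log2 fold change of -3.15 (SE 0.91, adjusted p = 0.0224 by edgeR). A count of 0 was found in 9 of 17 males and 0 of 25 females.

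Among called members, the highest log2 fold changes of males over females were those of MCINXTMP_013187 and MCINXTMP_004313. MCINXTMP_013187 had 2.03 to 93.6 CPM (median 8.66) in males and 0 to 79.7 CPM (median 3.60) in females at 1 h, a log2 fold change of 1.60 (SE 0.49, adjusted p = 0.0285 by edgeR). MCINXTMP_004313 had 1.47 to 18.0 CPM (median 9.27) in males and 0.242 to 33.1 CPM (median 4.14) in females, a log2 fold change of 1.10 (SE 0.35, adjusted p = 0.0358 by edgeR). The sexes overlapped for both, and both calls were lost with the 450 nt libraries alone, at edgeR adjusted p = 0.0806 for MCINXTMP_013187 and 0.351 for MCINXTMP_004313, and with the 650 nt libraries alone, at 0.0865 and 0.0559.

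The close-numbered gene models MCINXTMP_006615, MCINXTMP_006617 and MCINXTMP_006619 are all members, and all were called lower in males at 1 h. Of these, MCINXTMP_006619 was chosen after its values were seen. The files give no positions, so whether they are neighbours or near-identical copies that could share reads is not known here. At 1 h MCINXTMP_006617 had 1716 to 18331 CPM (median 7747) in males and 4552 to 125042 CPM (median 23238) in females, a log2 fold change of -1.70 (SE 0.27, adjusted p = 1.09e-05 by edgeR). MCINXTMP_006619 had 0 to 22.4 CPM (median 1.89) in males and 4.41 to 96.7 CPM (median 19.5) in females, a log2 fold change of -2.43 (SE 0.41, adjusted p = 3.62e-05 by edgeR). MCINXTMP_006617 was also higher on AL than on PT at 1 h, with a log2 fold change of 1.62 (SE 0.27, adjusted p = 8.15e-06 by edgeR), as was MCINXTMP_006619, at 1.86 (SE 0.41, adjusted p = 0.000387 by edgeR). MCINXTMP_006615 was not called between the islands, at 0.37 (SE 0.32, adjusted p = 0.410 by edgeR).

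AL females held the highest counts of MCINXTMP_006617, and in them its groups separated at 20 h. The 10 flown AL females had 9459 to 83851 CPM (median 55227) and the 4 control AL females 92800 to 109239 CPM (median 98526), so every flown female lay below every control. At 1 h 5 of 7 flown AL females lay below the lowest control, with 29487 to 125042 CPM (median 60847) against 79939 to 109925 CPM (median 90178) in controls. PT females overlapped, with 4572 to 29392 CPM (median 12494) in 9 flown and 8886 to 26707 CPM (median 19618) in 5 control butterflies at 20 h. Flown AL males had 598 to 15406 CPM (median 5153) at 20 h, against 8330 and 9695 CPM in the control AL males. This split of a member by island and sex was made after its values were seen, and the 20 h butterflies also chose it. The share of all genes that separate likewise in AL females was not counted, so the separation is a description.

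MCINXTMP_006615 followed the same order in AL females at 20 h, with 137 to 1940 CPM (median 606) in flown and 1069 to 1779 CPM (median 1522) in control butterflies, and 8 of 10 flown females lay below the lowest control. MCINXTMP_006619 did not. In AL females at 20 h it had 8.24 to 60.3 CPM (median 35.2) after flight and 15.2 to 36.2 CPM (median 27.0) in controls. In AL males it had 0 to 6.34 CPM (median 0) in 5 flown butterflies, against 28.9 and 48.4 CPM in the controls. In PT females at 20 h it had 4.57 to 29.8 CPM (median 15.3) after flight and 3.62 to 13.3 CPM (median 10.8) in controls. PT males had 0 to 3.67 CPM in 6 flown butterflies, against 11.0 and 3.05 CPM in the controls. Its female medians were thus higher after flight on both islands, and the lower levels lay in males, with 2 controls per island. In the 42 butterflies of 1 h, the residuals of log2 CPM after removing population, treatment and sex had a Pearson correlation of 0.39 between MCINXTMP_006615 and MCINXTMP_006617, of 0.49 between MCINXTMP_006615 and MCINXTMP_006619, and of 0.08 between MCINXTMP_006617 and MCINXTMP_006619. These correlations share libraries and depth and are given as a description.

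**Figure D5:**
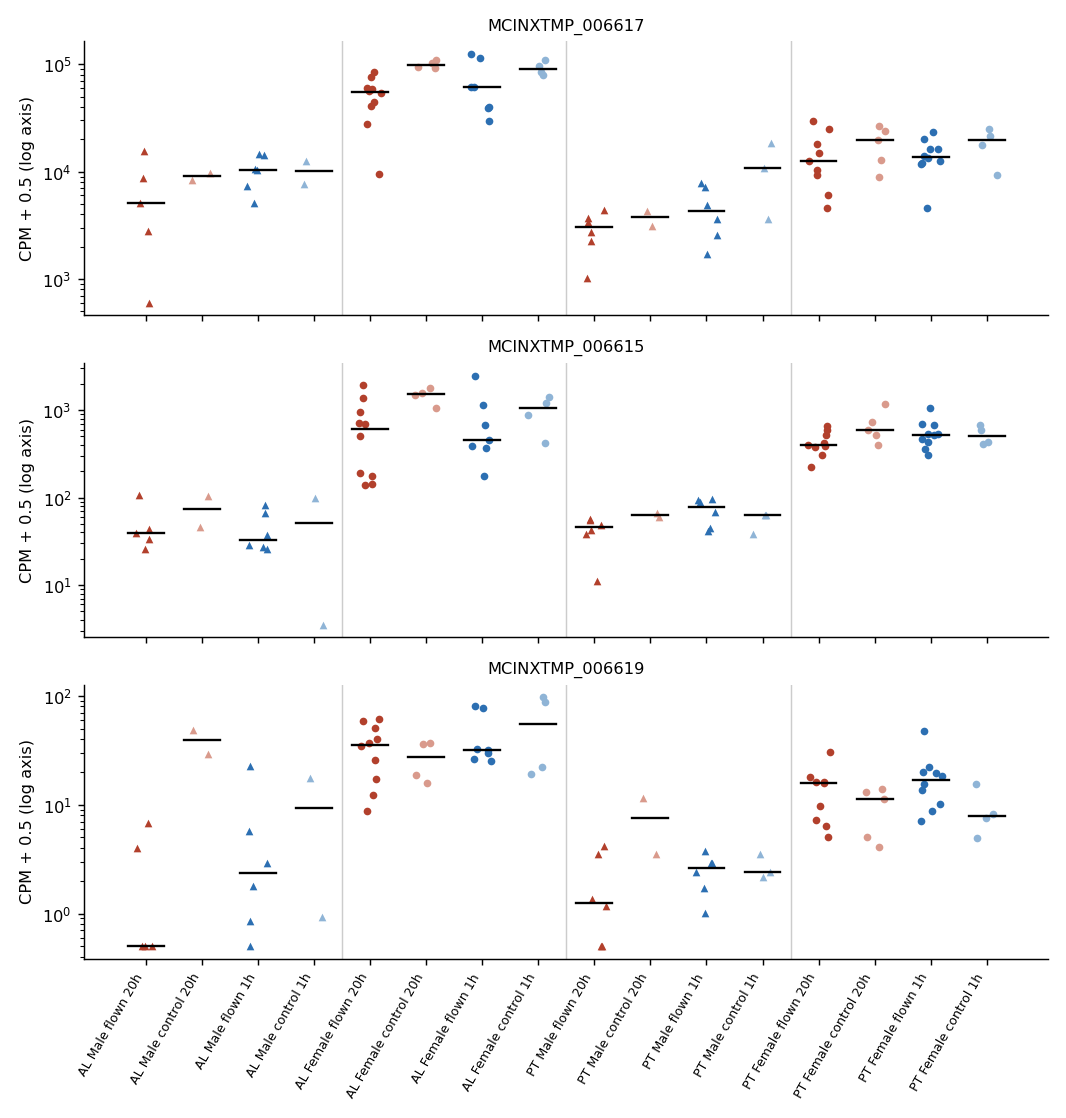
Each panel is 1 of the gene models MCINXTMP_006617, MCINXTMP_006615 and MCINXTMP_006619, with CPM + 0.5 on a log axis and 1 point per butterfly in the 16 groups of island, sex, treatment and time, circles for females and triangles for males, bars at medians. In the upper and middle panels every male median lies below the female median of the same island, treatment and time, and for MCINXTMP_006617 the 10 flown AL females at 20 h all lie below the 4 control AL females. The 20 h butterflies chose these transcripts, so their 20 h gaps are a description.

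The members were compared between the 2 insert sizes within each of the 42 butterflies of 1 h, since both libraries were summed. limma called 14 members (23.3%), against 14.8% of all genes tested, 4 higher in the 650 nt libraries (4.81% of all genes) and 10 lower (10.0%). The lowest values were those of MCINXTMP_006293, with a log2 difference of -0.72 (SE 0.14, adjusted p = 0.000127 by limma), and MCINXTMP_009027, at -0.64 (SE 0.11, adjusted p = 1.02e-05 by limma). The highest were those of MCINXTMP_013187, at 0.54 (SE 0.15, adjusted p = 0.0113 by limma), and MCINXTMP_005356, at 0.41 (SE 0.11, adjusted p = 0.00751 by limma).

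The members varied more between butterflies of one group than other genes did. At 1 h the SD of log2 CPM within groups had a median of 1.15 over the members and 0.77 over all 4920 genes. Among genes averaging over 50 CPM it was 1.01 for the 12 members and 0.55 for all 1320, and at 10 to 50 CPM 1.28 for the 29 members and 0.75 for all 2293. At 5 to 10 CPM the medians were closer, at 1.11 for the 19 members and 1.03 for all 1307. At the higher counts the members were thus more variable than genes with similar counts, in butterflies that did not choose them; the difference was not tested.

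The members did not vary together as one block. Over all 1770 pairs of members, the residual correlation at 1 h had a median of 0.07, against 0.05 over all pairs of the 4920 genes, and 25 pairs (1.41%) were above 0.5, against 0.974%. The most alike were MCINXTMP_001701 and MCINXTMP_010010, with a Pearson correlation of 0.80 and a Spearman correlation of 0.81 over 42 butterflies, and 0.77 without the 2 butterflies farthest from the median. MCINXTMP_001701 and MCINXTMP_012882 followed, the pair chosen after its values were seen, with a Pearson correlation of 0.71. At 20 h MCINXTMP_012882 had 0.550 to 86.7 CPM in flown AL butterflies, 12 of 15 below the control median, against 20.9 to 53.4 CPM in AL controls. On PT it had 2.12 to 16.6 CPM (median 5.12) in flown butterflies, 13 of 15 below the control median, against 7.65 to 16.5 CPM (median 11.4) in controls. The consecutive models MCINXTMP_008785 and MCINXTMP_008786 had a Pearson correlation of 0.06 at 1 h. MCINXTMP_008785 averaged only 5.14 CPM, so counting error can hide variation that the 2 share.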

How the data were processed

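RNA was sequenced from the thorax of 85 butterflies in strand-specific libraries anchored at the polyA tail, 2 per butterfly, per the labels' protocols. The submitters' processing notes name CASAVA 1.8, TopHat2 2.0.5 and edgeR, without saying what each did. Build, counter and strand setting are not given in the sources consulted, so reads of overlapping or near-identical genes may be split between them. For each of the 170 libraries the authors deposited a table of unnormalized whole-number counts per gene model.

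Counts of both libraries were summed per butterfly, the replicate. The labels number no replicates, and butterflies were numbered within groups by accession order. The members and comparisons were chosen with earlier results of these data known. Genes kept by filterByExpr (7643, holding 99.8% of the counts) were tested by edgeR 4.0.16 in R 4.3.3 (quasi-likelihood F test, robust, TMM factors) with Benjamini-Hochberg adjustment over all of them, and called at an adjusted p under 0.05. Flight effects used all 85 butterflies, with 8 cells of population and treatment plus an additive sex term. Island, sex and sex-by-flight effects used the 42 butterflies of 1 h. The SE is the size of the log2 fold change over the square root of F. For insert sizes, limma 3.58.1 was run on the 650 nt minus 450 nt difference in log2 CPM of each butterfly (prior count 2). Every group mean and SE covers the spread between butterflies. DESeq2 1.42.0 and limma voom were alternatives, as were other scalings, filters, library types, females alone and leaving out each control.

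Identifiers were named by rule: the first 2 members by R20, up to 2 called members at each end per 1 h comparison, the member with the most reads, the pair most alike, consecutive numbers, and the genes on either side of the limit of choice. Names outside the rule are said to be chosen after their values were seen. Counts of members averaging at least 5 CPM on each island or in each sex were added after the data were seen. The authors' normalized table was not used here.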

Additional observations from a re-analysis of the deposited data

Results flagged for a closer look

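In groups of 4 to 10 butterflies, the values of the transcripts named above were searched for a butterfly whose gap to the nearest other exceeded Dixon's 95% critical value. Of 88 groups tested, 9 held one, where chance flags about 5%. All 9 were controls, because the pooled flown groups had more than 10 butterflies and were not tested.

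At 20 h, on AL, female 3 had 4.75 CPM of MCINXTMP_011807, where the other controls had 0 to 1.69 CPM. The same female had 23.6 CPM of MCINXTMP_011024, against 5.58 to 12.3 CPM in the others. Male 2 had 0.338 CPM of MCINXTMP_008785, against 5.97 to 9.19 CPM. On PT, female 3 had 8.76 CPM of MCINXTMP_010010, against 0 to 3.03 CPM in the other controls.

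At 1 h, on AL, female 4 had 33.2 CPM of MCINXTMP_000977, where the other controls had 0.866 to 11.9 CPM, and female 1 had 79.7 CPM of MCINXTMP_013187, where they had 7.26 to 17.6 CPM. Male 2 had 3.03 CPM of MCINXTMP_011807, where they had 0 to 1.09 CPM. On PT, female 4 had 7.31 CPM of MCINXTMP_010010, where the other controls had 0 to 0.734 CPM, and male 1 had 0.316 CPM of MCINXTMP_006482, where all others had 0. Several of these values are a few reads.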

How the results depend on the processing

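The list itself depended on how R20 was computed: of the 60 members, 34 were chosen again with TMM-scaled totals, 23 with a mean CPM minimum of 1, 27 with means in place of medians, 26 with 450 nt libraries only, 31 with 650 nt libraries only and 26 with females only. Leaving out 1 control of 20 h at a time kept 41 to 51. Members called at 20 h, tried under alternatives chosen after seeing the data, numbered 18 with DESeq2, 3 with 450 nt and 6 with 650 nt libraries only, and 4 to 11 without 1 control, 4 without AL female control 3 or PT female control 4. No member was called for flight at 1 h under any of 21 alternatives. Those called between islands numbered 21 to 35, and between insert sizes 12 to 15. Those called between the sexes numbered 8 with 450 nt libraries only and 22 with all 85 butterflies. Causes of these shifts were not tested. The call of MCINXTMP_004313 between the sexes was lost in 5 of 20 alternatives, of MCINXTMP_013187 in 3 and of MCINXTMP_010010 in 1, and no called result changed direction. The members' median log2 ratio of flown to control medians at 1 h, which has no test, ran from -0.45 to -0.03 on AL over 13 alternatives. On PT it ran from -0.27 to 0.16 over 14, below 0 with females only (-0.27), 650 nt libraries only (-0.08) and without any 1 of the 3 PT male controls (-0.07 to -0.02). Depth limits the members with few reads most, since 39 averaged under 20 CPM. No paired analysis was possible because the labels number no replicates that groups share.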
